A study of Mus musculus with 6 samples.

Results

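The genes described here are the 7 chains of non-muscle myosin II in the gene tables, of 31053 genes in all. They were chosen by symbol and took in the heavy chains Myh9, Myh10 and Myh14, the essential light chain Myl6, and the regulatory light chains Myl9, Myl12a and Myl12b. All 7 were found. The rule of choice used no measured value of these genes, but earlier results of these data were known when it was made. Transcripts were counted in single cells from 2 droplet libraries of material whose labels name YUMM2.1, a mouse melanoma line, as its source. The study addresses Bmal1, a transcription factor of the circadian clock that is encoded by Arntl, and Myh9 is among the proteins it examined. The first library was labelled Empty vector and the second Bmal1 WT, and each was reported to pool 3 replicates told apart by hashtag antibodies (h1, h7 and h8 for Empty vector, and h3, h5 and h9 for Bmal1 WT). Deposited parts for a further group, Bmal1 bHLH, matched those of Bmal1 WT in 3 of 3 cases and were counted once.

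YUMM2.1 carries activated Braf, heterozygous loss of Cdkn2a and a stabilised β-catenin allele. Both groups share that background. Per the study's methods, the lines were transduced with lentivirus, with the vector alone or with Bmal1, and sorted on a fluorescent reporter. Culture or tumour as the origin of the cells is not given in the labels, nor are the strain, age, time of collection or treatment of any host, and the hashtags are not said to be separate cultures or animals. The p-values below therefore measure the spread between hashtags, which may be technical. Each group was 1 library, so that group and droplet channel cannot be told apart.

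Non-muscle myosin II is the motor that lets cells other than muscle contract, divide and crawl. Its unit pairs heavy chains, which hold the motor head and the rod, with essential light chains that stiffen the lever arm and regulatory light chains whose phosphorylation by Rock1, Rock2 and myosin light chain kinase switches the motor on and lets it form bipolar filaments. The heavy chain gene sets the isoform, with Myh9 for IIA, Myh10 for IIB and Myh14 for IIC, and IIA is the form known from blood cells.

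In GENCODE M21 (GRCm38, 1-based), Myh9 (ENSMUSG00000022443) lies at chr15:77760587-77842175 on the minus strand, Myh10 (ENSMUSG00000020900) at chr11:68691559-68816632 on the plus strand and Myh14 (ENSMUSG00000030739) at chr7:44605803-44670843 on the minus strand. Myl6 (ENSMUSG00000090841) lies at chr10:128490860-128494145 on the minus strand and Myl9 (ENSMUSG00000067818) at chr2:156775420-156781658 on the plus strand. Myl12a (ENSMUSG00000024048, chr17:70993656-71002878) and Myl12b (ENSMUSG00000034868, chr17:70973133-70990890) are neighbours on the minus strand of chromosome 17. All 7 are protein coding. Myl12a and Myl12b share 96.5% of their 516 coding bases, yet none of the 50-base words in the last 500 bases of either transcript occurred in another annotated gene. The same held for every other chain except Myl6, where 48.3% of the words also occurred in 5 pseudogenes, none of them in the gene tables, so Myl6 counts are less certain. On the same strand, a further gene also called Myl12b (ENSMUSG00000117098), whose transcripts GENCODE tags as readthrough, touches exons of both Myl12a and Myl12b and has no row in the gene tables, so its part in the counts of these chains was not tested. Use of strand in counting was not stated. Genes on the opposite strand that touch exons held few UMIs (unique molecular identifiers, each 1 counted molecule), with 45 for Gm26561 at Myl12a and Myl12b, 38 for Myom1 at Myl12a and 3 for 2310016G11Rik at Myh14.

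The promoters of the 3 regulatory light chains are shown because these genes differed in their pattern over cell classes while their coding sequences are close. Each run is 300 bases from RefSeq (GRCm38.p6), 5′ to 3′ on the strand of the gene, from 250 bases before to 50 bases after its start. Capitals mark a CACGTG E-box, the motif that Bmal1 with its partner Clock is known to bind, in Myl12a, and a CArG box, the motif of serum response factor, in Myl9. Myl12a is chr17:71002484-71002783 (minus), Myl12b is chr17:70990467-70990766 (minus) and Myl9 is chr2:156775214-156775513 (plus).
Myl12a: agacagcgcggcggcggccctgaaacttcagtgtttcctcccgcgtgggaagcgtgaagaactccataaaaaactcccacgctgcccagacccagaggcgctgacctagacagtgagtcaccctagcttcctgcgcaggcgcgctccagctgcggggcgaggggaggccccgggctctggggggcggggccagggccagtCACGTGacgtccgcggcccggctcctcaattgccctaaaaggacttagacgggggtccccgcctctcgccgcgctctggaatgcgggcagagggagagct
Myl12b: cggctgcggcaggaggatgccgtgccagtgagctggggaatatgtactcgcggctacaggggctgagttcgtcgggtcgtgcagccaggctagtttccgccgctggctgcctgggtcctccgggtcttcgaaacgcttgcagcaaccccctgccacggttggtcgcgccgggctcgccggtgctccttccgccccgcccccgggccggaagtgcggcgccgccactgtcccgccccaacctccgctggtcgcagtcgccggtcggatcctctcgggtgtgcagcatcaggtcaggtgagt
Myl9: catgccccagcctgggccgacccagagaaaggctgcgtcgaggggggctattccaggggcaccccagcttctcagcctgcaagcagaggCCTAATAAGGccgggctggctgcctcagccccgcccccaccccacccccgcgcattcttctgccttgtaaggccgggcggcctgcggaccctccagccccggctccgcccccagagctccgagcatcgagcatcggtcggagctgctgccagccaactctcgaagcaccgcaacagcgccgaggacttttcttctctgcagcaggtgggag

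The E-box began 50 bases before the Myl12a start and the CArG box 161 bases before the Myl9 start. A CArG box also began 50 bases before the downstream of the Myl6 starts (chr10:128492960-128493259, minus). Motifs were searched on both strands. CACGTG is its own reverse complement, and 7.15% of 32851 RefSeq promoters of this length hold it. The CArG box was found in 1.63% of them. The windows of Myl12b, Myh9, Myh10, Myh14 and the upstream Myl6 start (chr10:128493837-128494136, minus) held neither set of letters.

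The Empty vector library held 4147 barcodes and 34232927 UMIs, and the Bmal1 WT library 2785 barcodes and 39561569 UMIs. The cell filter kept 3978 and 2386 cells, and the libraries shared 5 barcodes. A cell entered a class when at least 3 marker genes of that class had a UMI, and more than of any other class. None of the 7 chains was a marker. This placed 5651 of 6364 cells in 6 classes. Melanoma-like cells numbered 130 and 347 in Empty vector and Bmal1 WT (median 18032 and 24211 UMIs), with 142 and 235 fibroblast-like, 1186 and 379 T-cell-like, 1085 and 411 NK-cell-like, 703 and 403 macrophage- or monocyte-like and 383 and 247 dendritic-cell-like cells. In melanoma-like cells 12 of 15 melanoma markers had UMIs in each library, and Ednrb, Mlana and Tyrp1 were at 0. Their fibroblast markers summed to 311 and 313 CPM (UMIs of a gene scaled to a common library total), against 24460 and 13926 CPM in fibroblast-like cells. The 8 pericyte or smooth muscle markers summed to 2.73 and 3.57 CPM, and Acta2 had 0 and 7 UMIs. In fibroblast-like cells the melanoma markers summed to 340 and 386 CPM, against 2442 and 1973 CPM in melanoma-like cells. Sox9, a regulator linked to a mesenchymal state, was at 557 and 333 CPM in fibroblast-like and 69.0 and 78.8 CPM in melanoma-like cells. Sox10, a regulator of the melanocyte lineage, was at 0.388 and 0.450 against 221 and 147 CPM. The study reports that added Bmal1 shifts the line from high Sox10 toward high Sox9. Whether tumour cells in that state entered the fibroblast-like class was not tested, and the melanoma-like comparisons would not cover them. In the immune classes the melanoma markers summed to between 25.4 and 80.2 CPM. The hashtag replicates held between 4 (Empty vector h7, 67614 UMIs) and 65 melanoma-like cells. Only 59 of 130 and 117 of 347 melanoma-like cells carried exactly 1 hashtag, and 68 and 225 carried none. Of the fibroblast-like cells only 36 of 142 and 50 of 235 carried exactly 1 hashtag, and 97 and 179 carried none. Each hashtag replicate held between 9 and 20 fibroblast-like cells, on which the hashtag levels and tests of that class rest.

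Arntl itself was measured first, as the targeted gene. In melanoma-like cells it stood at 57.2, 104 (7 UMIs) and 52.4 CPM in the Empty vector hashtags h1, h7 and h8. In the Bmal1 WT hashtags h3, h5 and h9 it stood at 43.7, 66.2 and 60.8 CPM. The groups overlapped, and a rise of Arntl in the library labelled Bmal1 WT was not seen. Whether transcript from the vector carries the 3′ end that is counted was not given in the sources used here, so this is no check of the label, and Bmal1 WT below stands for the library labelled so.

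The first question was how the chains differ between the classes. Myl12b was lowest in melanoma-like cells and highest in dendritic-cell-like cells. Myl9 and Myh14 were highest in melanoma-like cells and nearly absent from the immune classes, Myh10 was highest in fibroblast-like cells, and Myl12a was close to level across all 6 classes. Levels are CPM of sums over the cells of a class in each of 6 hashtags, given as mean ± SD with n = 6. CPM values are compared between classes for 1 gene at a time and not between genes.

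**Figure D1:**
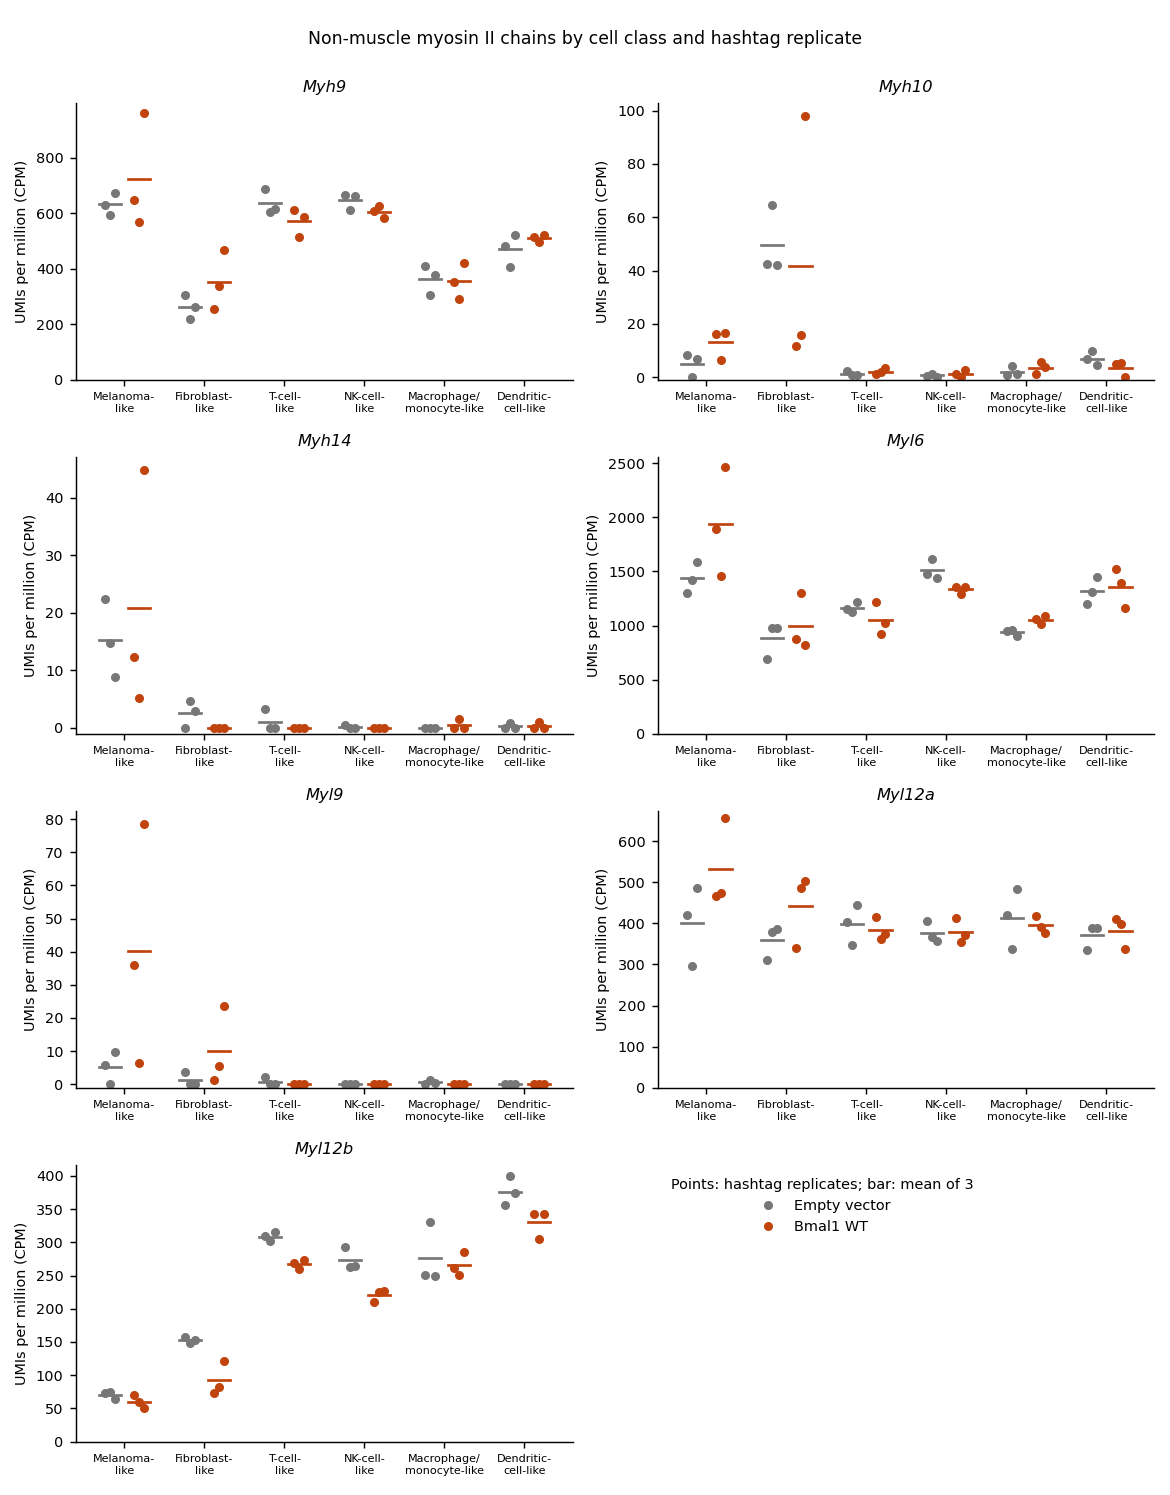
Level of each myosin II chain by cell class, in CPM on a linear axis, with 1 point per hashtag (Empty vector h1, h7, h8 and Bmal1 WT h3, h5, h9) and the mean of each group. Myl12b has its lowest points in melanoma-like cells (50.8 to 73.9 CPM), while Myl9 and Myh14 have their highest mean there.

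The heavy chain Myh9, motor of myosin IIA, was found in all classes. Its level was 678 ± 143 CPM in melanoma-like, 626 ± 32.7 in NK-cell-like, 603 ± 55.0 in T-cell-like, 490 ± 44.2 in dendritic-cell-like, 359 ± 54.0 in macrophage- or monocyte-like and 307 ± 88.3 in fibroblast-like cells (SD, n = 6). In edgeR's quasi-likelihood test with hashtag as a block and Benjamini-Hochberg adjustment over 11970 genes, melanoma-like cells exceeded fibroblast-like cells 2.20 times (log2 1.14 ± 0.13 SE, adjusted p = 1.35e-08) and macrophage- or monocyte-like cells 1.88 times (adjusted p = 7.23e-08). The neighbours in this order did not all separate. Melanoma-like cells did not pass the test against NK-cell-like cells (log2 0.09 ± 0.12, adjusted p = 0.528) or T-cell-like cells (log2 0.15 ± 0.12, adjusted p = 0.279), and fibroblast-like and macrophage- or monocyte-like cells also did not (log2 -0.23 ± 0.12, adjusted p = 0.110). Against dendritic-cell-like cells Myh9 was 1.37 times higher in melanoma-like cells (adjusted p = 0.00152), a call lost with trimmed-mean (TMM) scaling (log2 0.17, adjusted p = 0.273) and without cells that passed the gate of 2 classes (log2 0.33, adjusted p = 0.0776).

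Myh10, the IIB heavy chain, averaged 45.7 ± 32.2 CPM in fibroblast-like cells and 9.08 ± 6.30 in melanoma-like cells (SD, n = 6). The fibroblast-like hashtags ranged from 11.6 (h3) to 97.9 CPM (h9), a wide spread on 98 UMIs in all. Fibroblast-like cells exceeded melanoma-like cells 3.62 times (log2 of melanoma-like over fibroblast-like -1.86 ± 0.45 SE, edgeR adjusted p = 0.00174). In the immune classes it fell between 0.890 CPM (NK-cell-like, 6 UMIs) and 5.15 CPM (dendritic-cell-like, 41 UMIs). Over class sums, the fibroblast-like level was 21.1 times the T-cell-like level (95% interval 12.4 to 38.3, counting error only) and 44.2 times the NK-cell-like level (19.6 to 123).

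Myh14, the IIC heavy chain, was found mainly in melanoma-like cells, at 18.1 ± 14.4 CPM (SD, n = 6) with 177 UMIs. The other classes stood at or below 1.27 CPM, with 10 UMIs in T-cell-like cells, all from Empty vector h1, and 1 or 2 UMIs in each of the remaining classes. A Myh14 UMI was present in only 0.169% of 1186 Empty vector and 0% of 379 Bmal1 WT T-cell-like cells. The intervals that follow take each UMI as independent, so they leave out this clustering in few cells and are too narrow. The ratio of class sums, melanoma-like over T-cell-like, was 16.0 (95% interval 8.51 to 34.0), and over fibroblast-like it was 23.3 (6.35 to 194) on 2 UMIs. Without h9 these ratios were 10.1 and 13.9, and without h1 the T-cell-like class held 0 UMIs and the first was at least 34.4-fold against a floor of 3 UMIs over the class. Leaving out h7 or h8 removed 1 of the 2 fibroblast-like UMIs and gave 43.2 and 45.2. All 5 contrasts with melanoma-like cells passed edgeR's quasi-likelihood test, with adjusted p from 1.25e-07 (macrophage- or monocyte-like) to 5.11e-04 (fibroblast-like).

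Among the light chains, Myl6, which supports the lever arm of the head, averaged 1689 ± 432 CPM in melanoma-like, 1424 ± 114 in NK-cell-like, 1340 ± 142 in dendritic-cell-like, 1111 ± 116 in T-cell-like, 996 ± 69.4 in macrophage- or monocyte-like and 942 ± 206 in fibroblast-like cells (SD, n = 6). Melanoma-like cells passed edgeR's test against 4 classes, with 1.79 times the fibroblast-like level (adjusted p = 1.03e-05), 1.69 times the macrophage- or monocyte-like level (adjusted p = 6.81e-06), 1.51 times the T-cell-like level (adjusted p = 1.88e-04) and 1.26 times the dendritic-cell-like level (adjusted p = 0.0282). The difference from NK-cell-like cells did not pass (log2 0.24 ± 0.13, adjusted p = 0.113). The call against dendritic-cell-like cells was lost with TMM scaling (log2 0.05, adjusted p = 0.797), without h3 (log2 0.34, adjusted p = 0.0593) and without h9 (log2 0.16, adjusted p = 0.292).

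The regulatory light chains did not share 1 pattern. Myl12a lay between 377 ± 31.7 CPM in dendritic-cell-like cells and 467 ± 116 CPM in melanoma-like cells (SD, n = 6), and only 2 of its 15 class contrasts passed, melanoma-like over NK-cell-like (log2 0.31 ± 0.13, edgeR adjusted p = 0.0313) and over dendritic-cell-like cells (log2 0.32 ± 0.13, adjusted p = 0.0275). Both were lost with TMM scaling, with 1 marker more and without h8 or h9, the first also without h5 and the second also without h1 (edgeR adjusted p from 0.0569 to 0.801 over these). Other settings added calls. Melanoma-like over T-cell-like passed with hashtags taken by the highest centred log count, with 1 marker fewer, without cells under 1% mitochondrial UMIs, without cells passing 2 classes and without h7 (edgeR adjusted p from 0.00832 to 0.0378). It passed over macrophage- or monocyte-like cells without cells passing 2 classes (log2 0.46, adjusted p = 0.00593) and over fibroblast-like cells with that hashtag assignment (log2 0.23, adjusted p = 0.0463).

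Myl12b, its near copy next door on chromosome 17, averaged 353 ± 31.9 CPM in dendritic-cell-like, 288 ± 23.7 in T-cell-like, 271 ± 32.0 in macrophage- or monocyte-like, 247 ± 31.2 in NK-cell-like, 122 ± 37.3 in fibroblast-like and 65.3 ± 9.14 in melanoma-like cells (SD, n = 6). No melanoma-like hashtag overlapped any immune class. The melanoma-like level was 5.40 times below the dendritic-cell-like level (log2 -2.43 ± 0.13 SE, edgeR adjusted p = 1.24e-16), 4.41 times below T-cell-like, 4.15 times below macrophage- or monocyte-like and 3.77 times below NK-cell-like cells. It was 1.80 times below fibroblast-like cells (log2 -0.85 ± 0.14, adjusted p = 1.41e-05), but this fell to log2 -0.17 (adjusted p = 0.856) without cells that passed the gate of 2 classes, which were 26 of 130 and 77 of 347 melanoma-like and 42 of 142 and 104 of 235 fibroblast-like cells.

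The share of cells with a Myl12b UMI was also lower in melanoma-like than in dendritic-cell-like cells at equal depth. Thinned to 2000 UMIs a cell, Myl12b was seen in 20.7% of 116 Empty vector and 12.4% of 306 Bmal1 WT melanoma-like cells, and in 51.6% of 345 and 45.6% of 195 dendritic-cell-like cells. Without thinning these shares were 66.9% and 63.7% against 85.4% and 77.3%. The Clopper-Pearson 95% intervals of the thinned shares were 13.7 to 29.2 and 8.94 to 16.6 in melanoma-like cells and 46.2 to 57 and 38.5 to 52.9 in dendritic-cell-like cells. Thinning left out 14 and 41 shallower melanoma-like and 38 and 52 dendritic-cell-like cells.

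Myl9, the regulatory light chain best known from smooth muscle and other contractile cells, averaged 22.8 ± 30.1 CPM in melanoma-like cells (SD, n = 6, 239 UMIs, of which 133 in h9) and 5.74 ± 9.09 CPM in fibroblast-like cells (16 UMIs). T-cell-like cells held 7 UMIs, all in Empty vector h1, macrophage- or monocyte-like cells held 2, and NK-cell-like and dendritic-cell-like cells held 0. A Myl9 UMI was present in only 0.169% of 1186 Empty vector and 0% of 379 Bmal1 WT T-cell-like cells. The ratio of class sums, melanoma-like over T-cell-like, was 30.9 (95% interval 14.8 to 77.7, too narrow because UMIs are taken as independent). Against a floor of 3 UMIs over the class, Myl9 was at least 56.7-fold higher in melanoma-like than in NK-cell-like cells and at least 51.2-fold higher than in dendritic-cell-like cells. Without h9 the ratio to T-cell-like cells was 15.1 (7.10 to 38.6) and the limits were 28.1 and 24.1, and without h1 the T-cell-like class held 0 UMIs. The melanoma-like excess over fibroblast-like cells was 3.93 in the class sums (2.37 to 6.99) and did not pass edgeR's test over hashtags (log2 1.83 ± 0.72 SE, adjusted p = 0.0622). It passed without cells of 2 classes (log2 4.23 ± 0.83, edgeR adjusted p = 0.00122), without h1 (log2 2.02, adjusted p = 0.0462) and without h5 (log2 2.41, adjusted p = 0.0328). A Myl9 UMI was present in 14.6% of 130 Empty vector and 16.1% of 347 Bmal1 WT melanoma-like cells. In the NK-cell-like class, taken as the background, it was in 0 of 1085 and 0.243% of 411 cells, at a median of 4322 and 6177 UMIs. At 2000 UMIs a cell the melanoma-like shares were 0% of 116 and 2.94% of 306, and the NK-cell-like shares 0% of 949 and 0.256% of 390. In Empty vector the 2 classes were thus not told apart at equal depth.

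**Figure D2:**
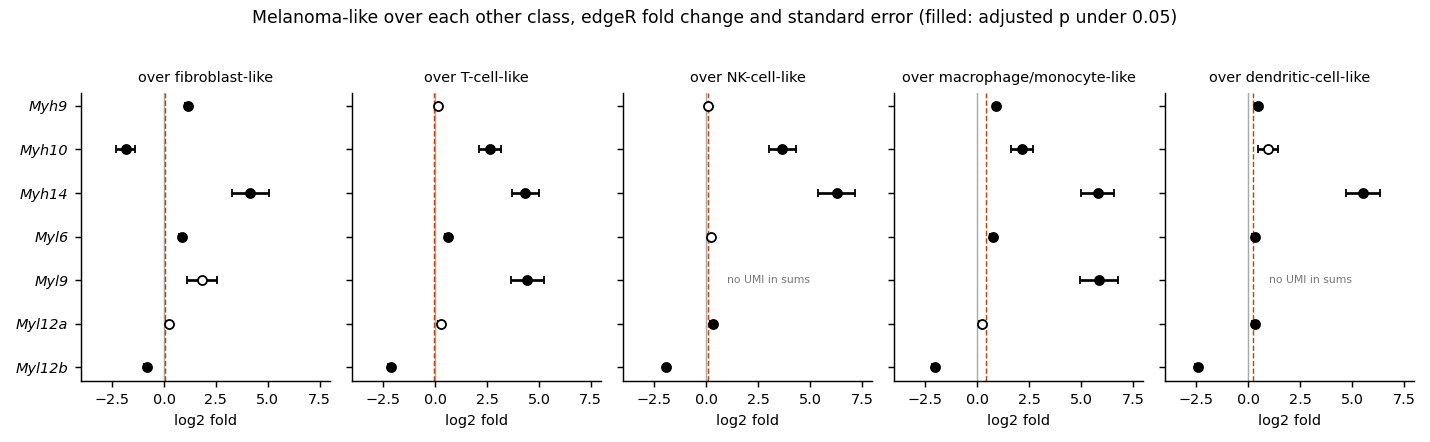
Fitted log2 difference of melanoma-like cells over each of the other 5 classes for the 7 chains, with bars of 1 SE from edgeR over 36 class-by-hashtag sums, beside the median of all genes tested. Myl12b lies below 0 in all 5 contrasts (-0.85 to -2.43), and Myh14 lies above 0 in all 5.

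Many genes differ between cell classes, and the chains are read against that. Melanoma-like against fibroblast-like cells called 5 of 7 chains where 28.5% of all genes were called. Against T-cell-like, NK-cell-like, macrophage- or monocyte-like and dendritic-cell-like cells it called 5, 5, 6 and 6 of 7, where 65.9%, 64.3%, 70.5% and 63.5% of genes were called. Of the contrasts without melanoma-like cells, fibroblast-like against T-cell-like cells called 4 of 7 (58.4% of genes), against NK-cell-like cells 5 (58.2%), against macrophage- or monocyte-like cells 3 (59.9%) and against dendritic-cell-like cells 5 (55.2%). T-cell-like against NK-cell-like cells called 0 of 7 by edgeR (17.5% of genes), with Myl6 alone at an unadjusted p under 0.05. T-cell-like cells differed in 1 chain from macrophage- or monocyte-like (63.9% of genes) and in 3 from dendritic-cell-like cells (52.7%). NK-cell-like cells differed in 2 from macrophage- or monocyte-like (59.4%) and in 3 from dendritic-cell-like cells (51%), and those last 2 classes differed in 3 (40.6%). The median of all genes was shifted by 0.43 on the log2 scale for melanoma-like over macrophage- or monocyte-like cells and by 0.25 over dendritic-cell-like cells, and TMM scaling brought these to 0.06 and 0.01. The same scaling moved the share of called genes that were higher in melanoma-like cells from 65.5% to 50.4% and from 61.1% to 50.1%. Myl12b kept its direction and its call against all 5 classes with TMM.

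The makeup within each family differed in the same way. UMIs of a gene do not grow with its length here, but capture of different 3′ ends may differ, so shares are compared between classes and not between genes. In library sums over all cells of a class, Myh9 took 96.7% of heavy chain UMIs in Empty vector and 96.2% in Bmal1 WT melanoma-like cells, and 86.5% and 89.4% in fibroblast-like cells, where Myh10 took 12.9% and 10.4%. Of the regulatory light chain UMIs, as means over hashtags, Myl12b took 15.4% ± 4.30 of the Empty vector and 9.90% ± 3.05 of the Bmal1 WT melanoma-like total (SD, n = 3 hashtags). In fibroblast-like cells it took 29.9% ± 2.97 and 16.9% ± 2.27, and in dendritic-cell-like cells 50.4% ± 1.23 and 46.4% ± 3.55. The T-cell-like shares were 43.7% and 41.1%, the NK-cell-like shares 42.1% and 36.8%, and the macrophage- or monocyte-like shares 40.2% and 40.2%. Myl9 took 0.970% ± 0.896 and 5.82% ± 4.43 in melanoma-like cells, with 0 Myl9 UMIs in h7. In library sums, which include untagged cells, the melanoma-like shares were nearer to each other, at 1.93% and 3.24% for Myl9 and 12.4% and 11.6% for Myl12b. These shares carry no test.

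**Figure D3:**
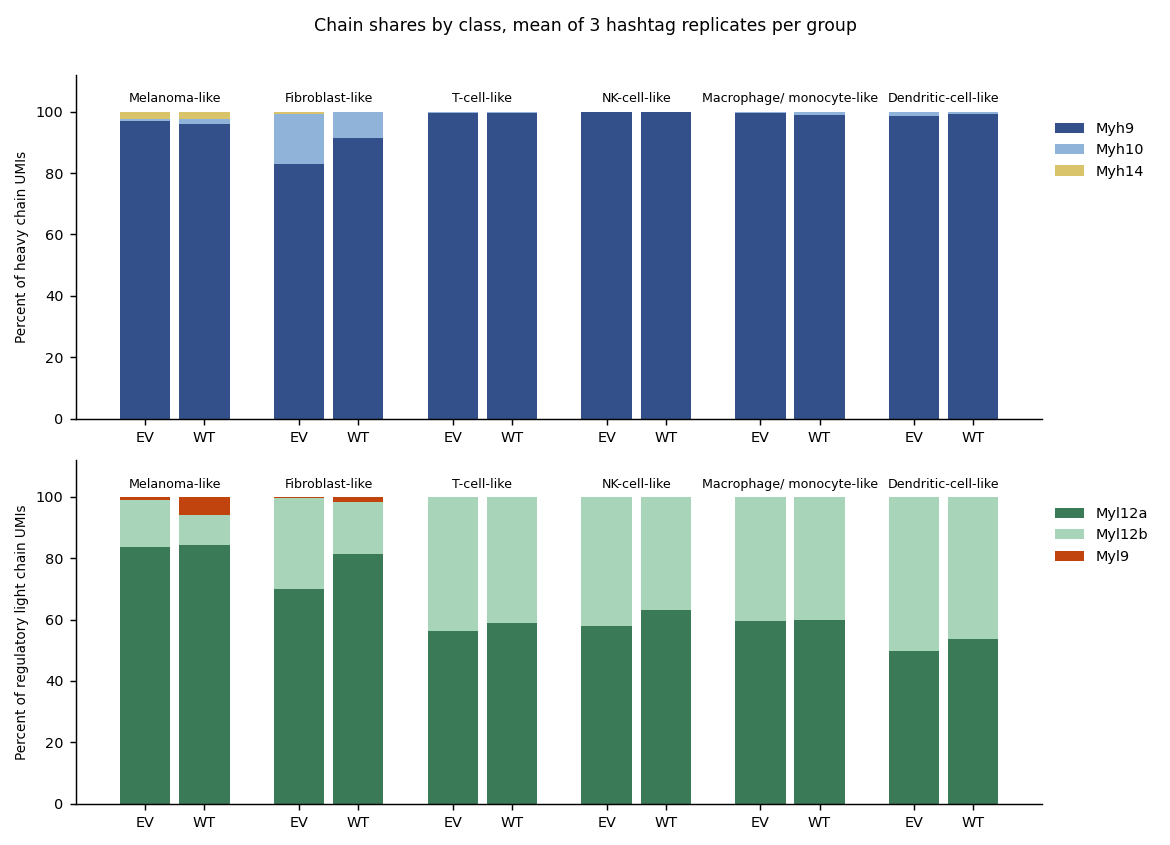
Share of each heavy chain and of each regulatory light chain in the UMIs of its family, in percent, by cell class and library. Myl12b rises from 15.4% and 9.90% (mean of hashtags) in melanoma-like to 50.4% and 46.4% in dendritic-cell-like cells, with Myl12a taking most of the rest. The melanoma-like 15.4% includes Empty vector h7, with 25 UMIs in all.

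The second question was whether the chains differ between Empty vector and Bmal1 WT within a class. In melanoma-like cells no chain passed the test. Myl9 had the largest difference in fitted value, which was smaller without h9. Hashtags are named in the order h1, h7, h8 for Empty vector and h3, h5, h9 for Bmal1 WT throughout.

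Myh9 measured 628, 592 and 673 CPM for Empty vector against 647, 567 and 959 CPM for Bmal1 WT melanoma-like cells. The groups overlapped, and h9 alone lay above the others. The log2 difference of Bmal1 WT over Empty vector was 0.19 ± 0.24 SE (adjusted p = 1 by edgeR), and without h9 it was -0.06.

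Myl9 measured 5.72, 0 and 9.89 CPM in Empty vector (11, 0 and 20 UMIs) and 36, 6.37 and 78.5 CPM in Bmal1 WT (47, 28 and 133 UMIs). The h7 sum was so shallow that 3 UMIs there stand for 44.4 CPM. The groups overlapped, since h5 lay below h8, while h9 was higher than every Empty vector hashtag and h3 was higher than h1 and h8 but below the limit that h7 allows. The log2 difference was 2.37 ± 0.88 (edgeR adjusted p = 1, with the unadjusted p under 0.05), between 1.38 without h9 and 2.91 without h5. Markers of fibroblasts summed to 88.7 to 365 CPM in the Empty vector and 222 to 300 CPM in the Bmal1 WT hashtags, and h9, where Myl9 was highest, had 256 CPM. The pericyte or smooth muscle markers summed to at most 1.56 CPM for Empty vector and to 6.90, 3.18 and 1.77 CPM in Bmal1 WT.

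Myl6 measured 1303, 1420 and 1588 CPM for Empty vector and 1894, 1462 and 2469 CPM in Bmal1 WT. The groups overlapped through h5, and the log2 difference was 0.43 ± 0.23 (adjusted p = 1 by edgeR). Myl12a measured 421, 296 and 486 CPM against 467, 475 and 656 CPM, which overlapped through h8 (log2 0.36 ± 0.24, adjusted p = 1).

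Myl12b measured 73.4, 73.9 and 64.3 CPM for Empty vector and 70.5, 59.1 and 50.8 CPM in Bmal1 WT, with h3 inside the range of Empty vector (log2 -0.21 ± 0.23, edgeR adjusted p = 1). Myh10 measured 8.33, 0 and 6.92 CPM against 16.1, 6.59 and 16.5 CPM, where h5 fell among the Empty vector values (log2 0.78 ± 0.53, adjusted p = 1). Myh14 measured 22.4, 14.8 and 8.90 CPM against 12.3, 5.23 and 44.9 CPM and had both its lowest and its highest value in Bmal1 WT (log2 0.37 ± 0.78, adjusted p = 1). It turned negative without h8 (-0.08) or without h9 (-0.95). The h7 values of Myl12b and Myh14 rest on 5 UMIs and 1 UMI. In all, 0 of 7 chains were called, where edgeR called 0% of 8610 genes (309 genes at an unadjusted p under 0.05, and 5 genes by DESeq2, none of them a chain). The hashtags of the groups did not overlap for 0 of 7 chains and for 9.77% of genes.

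**Figure D4:**
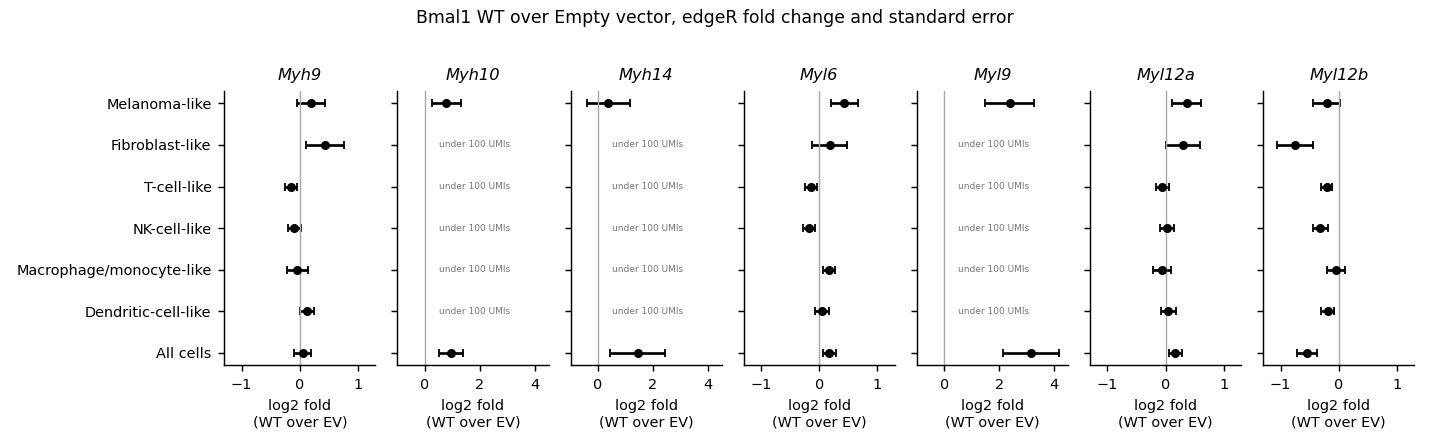
Fitted log2 difference of Bmal1 WT over Empty vector for each chain tested, by class and for all cells, with bars of 1 SE from edgeR over 3 hashtags a group. Myl9 lies highest, at 2.37 in the melanoma-like class and 3.16 over all cells, and Myl12b lies below 0 in all 6 classes.

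Melanoma-like cells without a hashtag could be compared as library sums, with no replicate check. Over all melanoma-like cells Myh9 was 604 CPM for Empty vector against 596 CPM for Bmal1 WT (log2 -0.02, 95% Poisson interval -0.08 to 0.04). Intervals of this kind cover counting error only. Myl9 was 10.6 and 17.7 CPM (log2 0.75, 0.33 to 1.18). In cells with 1 hashtag Myl9 was 7.73 and 28.1 CPM (log2 1.86, 1.31 to 2.46), and in cells with no hashtag it was 20.5 and 6.91 CPM (log2 -1.57, -2.27 to -0.84, on 27 and 50 UMIs). Myl9 was thus higher in Bmal1 WT among tagged cells and lower among untagged cells. Myl6 went from 0.29 among tagged to -0.29 among untagged cells and Myl12a from 0.19 to -0.39, so both also changed sign. Myh9 did not, at 0.05 and 0.15. Untagged cells were 68 of 130 and 225 of 347, and the part of tagging in these values was not tested.

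**Figure D5:**
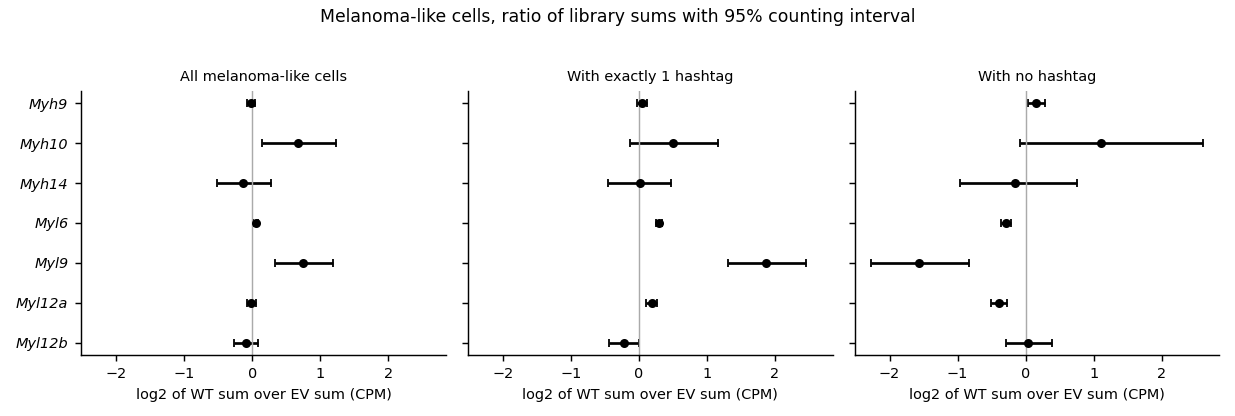
Log2 ratio of Bmal1 WT over Empty vector in library sums of melanoma-like cells, for all cells, cells with 1 hashtag and cells with none, with 95% Poisson intervals that cover counting error only. Myl9 stands at 0.75, 1.86 and -1.57 in these sets, and Myh9 stays between -0.02 and 0.15.

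Subsets of melanoma-like cells moved some chains and not others. In cells whose mitochondrial share was under 1% (45 and 101 cells), Myh9 was 435 and 299 CPM, and in the rest it was 618 and 624 CPM. Cells with a UMI of Sox9, a regulator linked to a mesenchymal state, had 723 and 605 CPM of Myh9 and those without had 459 and 578 CPM. Myl9 in cells without a Sox9 UMI was 6.46 and 26.5 CPM (log2 2.04, 1.29 to 2.88), and with one it was 13.9 and 12.8 CPM. Myh14 was 14.7 and 15.5 CPM in cells with a UMI of Sox10, a regulator of the melanocyte lineage, and 5.10 and 1.38 CPM on 2 and 4 UMIs in cells without. Membership of the Sox9 and Sox10 subsets depends on detecting a single UMI.

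In the other classes the chain with the most regular difference was Myl12b, which was lower in Bmal1 WT than in Empty vector in the fitted value of all 6 classes and passed the adjusted threshold in none. In fibroblast-like cells it measured 158, 148 and 153 CPM for Empty vector and 72.4, 82.2 and 122 CPM in Bmal1 WT. These sums held 9 to 20 cells each. Every Bmal1 WT hashtag lay below every Empty vector hashtag (log2 -0.75 ± 0.31 SE, edgeR adjusted p = 0.461, unadjusted p under 0.05). The fibroblast markers summed to 20079, 24904 and 19856 CPM in these Empty vector sums and to 8311, 8395 and 24431 CPM in the Bmal1 WT sums, so that the hashtags h3 and h5, lowest in Myl12b, were also lowest in these markers. Their part in the result was not tested.

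In T-cell-like cells Myl12b measured 310, 301 and 315 CPM for Empty vector and 269, 259 and 273 CPM in Bmal1 WT, again without overlap (log2 -0.21 ± 0.09, edgeR adjusted p = 0.234, unadjusted p under 0.05). NK-cell-like cells had 293, 262 and 264 CPM against 211, 226 and 227 CPM, also apart (log2 -0.31 ± 0.12, adjusted p = 0.299, unadjusted p under 0.05). Dendritic-cell-like cells had 356, 399 and 374 CPM against 342, 305 and 343 CPM, with the groups apart by a small gap (log2 -0.19 ± 0.11, adjusted p = 0.462). Macrophage- or monocyte-like cells had 251, 330 and 249 CPM against 261, 250 and 285 CPM, which overlapped (log2 -0.05 ± 0.15). Library sums over all cells of a class gave log2 -0.51 in fibroblast-like, -0.24 in T-cell-like, -0.39 in NK-cell-like, -0.14 in dendritic-cell-like and 0.04 in macrophage- or monocyte-like cells.

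Within a class, hashtags of Empty vector and Bmal1 WT without overlap were also found among all genes, at the shares given below. How many of all genes keep the same direction over every class was not counted. The shared direction of Myl12b over the classes therefore has no such background. Only 4 chains (Myh9, Myl6, Myl12a and Myl12b) had the 100 UMIs needed for the test outside melanoma-like cells. The groups did not overlap for 1 of these 4 in fibroblast-like (15.2% of genes), T-cell-like (28.3%), macrophage- or monocyte-like (20.5%) and dendritic-cell-like cells (22.2%), and for 2 of 4 in NK-cell-like cells (18.6%). Beside Myl12b these were Myl6, lower in every Bmal1 WT hashtag of NK-cell-like cells (1481, 1613 and 1441 CPM against 1356, 1296 and 1358 CPM) and higher in every Bmal1 WT hashtag of macrophage- or monocyte-like cells (952, 961 and 903 CPM against 1058, 1014 and 1086 CPM). By edgeR's adjusted p, 0 of 4 chains were called in each of these 5 classes. The share of all genes called was 0% in fibroblast-like, T-cell-like, macrophage- or monocyte-like and dendritic-cell-like cells and 0.221% in NK-cell-like cells. At an unadjusted p under 0.05 stood 489, 1757, 1026, 1068 and 965 genes in these classes in that order, and DESeq2 called 27, 271, 78, 105 and 100 genes and 0 chains.

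Over every cell with 1 hashtag, whatever its class, Myl9 measured 1.68, 0.184 and 2.04 CPM for Empty vector and 5.42, 3.46 and 30.3 CPM in Bmal1 WT (log2 3.16 ± 1.03 SE, edgeR adjusted p = 0.163). Myl12b measured 254, 305 and 247 CPM against 219, 146 and 190 CPM (log2 -0.54 ± 0.17, adjusted p = 0.163). The groups were apart for Myl9, Myl12b and Myl6, which is 3 of 7 chains, and for 34% of genes. DESeq2 called Myl9 (log2 3.29 ± 0.96, adjusted p = 0.0190), while edgeR called 0 of 7 chains and 0% of genes (2936 genes at an unadjusted p under 0.05). In these sums a different mix of classes and a different level per cell cannot be told apart. Melanoma-like cells were 31, 4 and 24 of the Empty vector and 25, 65 and 27 of the Bmal1 WT cells with 1 hashtag.

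Whether the difference between Bmal1 WT and Empty vector itself changed from melanoma-like cells to another class was tested as an interaction over the 36 sums. No chain passed, with 0 of 7 called for each of the 5 classes, where the share of all genes called was 0.685% (fibroblast-like), 0.0167% (T-cell-like), 0% (NK-cell-like), 0.00835% (macrophage- or monocyte-like) and 0% (dendritic-cell-like). At an unadjusted p under 0.05 stood Myl12b in fibroblast-like cells, with an interaction of -0.56 ± 0.25 on the log2 scale (edgeR adjusted p = 0.304). Myl6 differed by -0.58 ± 0.25 in T-cell-like cells (adjusted p = 0.812) and by -0.61 ± 0.25 in NK-cell-like cells (adjusted p = 1), and Myl9 by -5.60 ± 2.33 in T-cell-like cells (adjusted p = 0.824). The T-cell-like Myl9 value rests on 7 UMIs in Empty vector h1 and 0 in each Bmal1 WT hashtag. The share of all genes at that unadjusted level is not given here.

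The genes that act on these chains were described as a list of 37, made of kinases, phosphatase subunits, small GTPases and their regulators, filament partners and other myosin II chains. In melanoma-like cells 33 of them could be tested and 0 passed edgeR's adjusted threshold in either direction, with 17 fitted values above 0, 16 below 0 and a median of 0.01 on the log2 scale. Rock1 and Rock2, kinases that phosphorylate the regulatory light chain and its phosphatase, differed by 0.16 ± 0.23 and 0.04 ± 0.21. Ppp1r12a, the targeting subunit of myosin phosphatase, differed by 0.31 ± 0.23, and Rhoa, the small GTPase that activates these kinases, by -0.15 ± 0.21. Actn4, an actin crosslinker, differed by -0.11 ± 0.24, and S100a4, which binds the Myh9 rod, by -0.21 ± 0.41. Mylk, the gene of myosin light chain kinase, had 9 and 40 UMIs in the library sums and was not tested. The list had 0 calls in the other 5 classes and in all cells as well. In all cells 33.3% of 36 list genes and 24.4% of all genes stood at an unadjusted edgeR p under 0.05. Within each class the list share rested on 1 to 3 genes, too few to be read as a difference from all genes. It was 3.03% (1 gene) against 3.59% in melanoma-like, 6.90% (2 genes) against 10.4% in fibroblast-like and 11.1% (3 genes) against 21.2% in T-cell-like cells. The NK-cell-like, macrophage- or monocyte-like and dendritic-cell-like shares were 4.55% (1 gene) against 13.3%, 12% (3 genes) against 14.2% and 3.57% (1 gene) against 15.3%.

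Between classes many list genes passed, as did many genes in general. Of 36 genes tested, 17 were higher and 3 lower in melanoma-like than in fibroblast-like cells, with a median of 0.48 against 0.04 for all genes, of which 28.5% were called. The counts were 24 higher and 8 lower against T-cell-like, 25 and 7 against NK-cell-like, 23 and 7 against macrophage- or monocyte-like, and 19 and 5 against dendritic-cell-like cells, where 65.9%, 64.3%, 70.5% and 63.5% of all genes were called. Of all called genes the share higher in melanoma-like cells was 52.2% against fibroblast-like cells and 49.6%, 55.9%, 65.5% and 61.1% against these 4 classes. The medians were 1.44, 1.43, 1.22 and 0.71 in these contrasts, against -0.04, 0.11, 0.43 and 0.25 for all genes.

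Genes with the pattern most like each chain were taken by Pearson's r of log2(CPM + 5) over 12 sums (6 classes in 2 libraries) among 11522 genes. The sums of 1 library share its droplets and depth, and classes differ at many genes, so these values are a description. For Myl12b they were Sh3bp1 (r = 0.987), Fgl2 (0.987) and Cytip (0.985). Myl9 was most like Rock2 (0.980), Synm (0.978) and Hoxb7 (0.976). For Myh14 they were Ppp1r14c (0.993), Mmp17 (0.990) and Bricd5 (0.986), and for Myh10 they were Rarb (0.981), Cpne8 (0.981) and Nid2 (0.98). Myh9 was most like Ralgapb (0.963), Zfhx2 (0.959) and Sigirr (0.934), Myl6 like Hps1 (0.936), Rtn4rl1 (0.903) and Polr2e (0.898), and Myl12a like Aatk (0.936), Spsb4 (0.933) and Dync1i2 (0.931).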

How the data were processed

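The authors deposited raw UMI counts per gene and barcode from 2 libraries, filtered to called cells, with hashtag antibody counts beside them. Per the labels and file headers the Chromium 3′ kit v3.1, Cell Ranger 6.1.2 and mm10 were used, and the counts were not normalized. The study's methods give no single-cell analysis. A further allele of the line is not reported here. The 7 genes, the marker lists and the gene list were chosen with earlier results of these data known, and the gate rule was set after marker counts had been seen. All 7 genes were to be named in every class, with Rock1, Rock2, Mylk, Ppp1r12a, Rhoa, Actn4, S100a4 and any called list gene in melanoma-like cells.

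Cells needed 200 genes and at most 20% of UMIs from 13 mitochondrial genes. A 2-component Gaussian mixture (scikit-learn 1.9.0) on log hashtag counts assigned 4843 cells to exactly 1 hashtag. Doublets were kept and no caller was run. UMIs were summed per hashtag and class, scaled by total UMIs and tested with edgeR 4.0.16 (quasi-likelihood, genes with at least 100 UMIs, Benjamini-Hochberg threshold 0.05, R 4.3.3), after a check on simulated data. SE is the log2 value over the square root of F. Alternatives were TMM scaling, DESeq2 1.42.0, a minimum of 10 UMIs, another hashtag assignment, 1 marker fewer or more, Leiden clusters (scanpy 1.11.5), cells under 1% mitochondrial UMIs or passing 2 classes left out, and each hashtag left out. Levels of library sums carry exact Poisson and shares exact Clopper-Pearson 95% intervals.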

Additional observations from a re-analysis of the deposited data

How the results depend on the processing

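The count of chains called between Empty vector and Bmal1 WT was 0 in each of the 6 classes, and 0 in the interaction, under every alternative run, with a range of 0 to 0 over the hashtags left out. In all cells DESeq2 called 1 chain (Myl9), and the 10 other alternatives called 0. Between classes 56 of 105 chain contrasts passed, 49 to 59 with a hashtag left out and 48 to 62 over all alternatives. A few single values changed sign. Bmal1 WT over Empty vector in melanoma-like cells turned for Myh14 without h8 (-0.08) or h9 (-0.95; range with a hashtag left out -0.95 to 1.09) and for Myh9 without h9 (-0.065; range -0.065 to 0.34), and Myl12b in macrophage- or monocyte-like cells turned with hashtags taken by the highest centred log count (0.0016) and without h7 (0.085; range -0.12 to 0.085). Melanoma-like over NK-cell-like Myh9 turned with that assignment (-0.068), with TMM (-0.037) and without h9 (-0.036; range -0.036 to 0.14), melanoma-like over T-cell-like Myh9 with that assignment (-0.015), and melanoma-like over macrophage- or monocyte-like Myl12a with TMM (-0.18). The cause was not tested. No paired analysis was possible because the hashtag names are not shared between Empty vector and Bmal1 WT and the labels give no numbers that pair them.

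The count of all genes called moved more than that of the chains. In NK-cell-like cells the 16 genes became 3 with the other hashtag assignment, 10 with TMM, 29 without cells under 1% mitochondrial UMIs, 37 at a minimum of 10 UMIs, 100 with DESeq2 and 0 (without h1 or h5) to 131 (without h7) with a hashtag left out. Where edgeR called 0 genes, T-cell-like cells had 179 with Leiden clusters, 290 without cells passing 2 classes and 123 without h8, fibroblast-like cells had 84 without h9, dendritic-cell-like cells had 23 with TMM and 47 without cells passing 2 classes, melanoma-like cells had 7 without cells passing 2 classes, and all cells had 126 without h3. Depth limits the low chains. Myl9, Myh10 and Myh14 rested on 239, 108 and 177 UMIs in melanoma-like cells with 1 hashtag, and Empty vector h7 gave 4 such cells. Small changes of these chains were not detectable at that depth.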

Other observations

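Cells that entered no class were outside every comparison. Over these cells Myl12b was 222 CPM for Empty vector and 88.3 CPM for Bmal1 WT (332 and 198 UMIs), a log2 ratio of -1.33 with a 95% Poisson interval of -1.59 to -1.07 that covers counting error only. Among those with 1 hashtag the values were 273 and 127 CPM, and among those with none they were 92.5 and 61.0 CPM. The share of cells under 1% mitochondrial UMIs moved with this, with 76 of 319 cells for Empty vector and 197 of 342 for Bmal1 WT (median mitochondrial share 4.27% and 0.179%), as did the cells with no hashtag, 81 and 207. Myl12b was 122 and 88.6 CPM in cells under 1% and 236 and 88.1 CPM in the rest. There is 1 library per group, and the makeup of these cells is not known, so no test was made.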
